A study of Homo sapiens with 48 samples.

Results

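The transcription factor NF-κB is a dimer of Rel family proteins that is held in the cytoplasm by IκB proteins until the IκB kinase complex marks them for degradation. The freed dimer enters the nucleus and switches on genes of inflammation, cell survival and its own restraint, among them the gene of its main inhibitor, IκBα. In the intestinal epithelium the pathway is known for its part in inflammation and in the growth of colorectal tumors.

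The 10 genes described here encode subunits, inhibitors and other regulators of this factor. The subunits among them are NFKB1 (p105, the precursor of p50), NFKB2 (p100, the precursor of p52), RELA (p65) and RELB. A further subunit, REL, is not among the 10 genes and is given with the pathway lists below. The inhibitors are NFKBIA (IκBα), NFKBIB (IκBβ) and NFKBIE (IκBε). The remaining genes are BCL3, a nuclear IκB protein that acts as a coactivator of p50 and p52, TNFAIP3 (A20, a ubiquitin-editing enzyme that dampens the signal) and BIRC3 (cIAP2, a ubiquitin ligase of the receptor complexes). They were chosen by gene symbol. Of the 10 genes, 8 were among the 11145 genes measured in ribosome-protected fragments (RPFs, the mRNA pieces covered by translating ribosomes) and 8 among the 11947 measured in total cytoplasmic RNA. The 7 genes in both tables were NFKB1, NFKB2, RELA, RELB, NFKBIA, NFKBIB and NFKBIE, out of 10836 genes. BCL3 was analyzed in RPFs only, BIRC3 in total RNA only, and TNFAIP3 is not analyzed here.

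The cells were SW480, an APC-mutant human colorectal cancer line. Each of 3 sublines carried a doxycycline-inducible hairpin after stable lentiviral transduction, namely a control hairpin (shCTRL), a hairpin against EIF2B1 (shEIF2B1, eIF2Bα) or a hairpin against EIF2B4 (shEIF2B4, eIF2Bδ). EIF2B1 and EIF2B4 encode subunits of the exchange factor that reloads the initiation factor eIF2. Each subline received doxycycline at 1 µg/ml (+DOX) or solvent (-DOX) for 5 days, in 4 replicates handled in separate weeks, which gave 24 lysates and 48 libraries. Only 1 hairpin per target was used, and each subline was drug-selected after infection, so that a difference between sublines and an off-target effect of a hairpin cannot be told apart from the loss of the subunit.

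Values are regularized log2 expression, made by the authors separately for the RPF and the total RNA libraries. This scale pulls genes of low counts towards their mean, so that their changes are understated, and the read depth of the libraries is unknown. A response is the change on induction in a knockdown line minus the change in shCTRL, fitted with limma across all genes with the week as a block, and a gene was called at an adjusted p under 0.1. Translation efficiency (TE) is the log2 RPF value minus the log2 total RNA value of the same lysate. Both responses use the same 8 shCTRL libraries per assay and are therefore given side by side. EIF2B1 fell in the shEIF2B1 response by 0.53 in RPFs (adjusted p = 0.0109) and by 0.67 in total RNA (adjusted p = 0.0263). EIF2B4 fell by 0.49 in total RNA after shEIF2B4 (adjusted p = 0.0634), and its RPF value was -0.48 (adjusted p = 0.236). The median RPF value of the shEIF2B4 libraries lay between 6.84 and 6.97, below the 6.98 to 7.06 of the shCTRL libraries. Of 11 colon epithelial marker genes 6 were measured in each assay, in total RNA EPCAM, CDH1, KRT8, KRT18, KRT19 and CDX2. The others, KRT20, CDX1, VIL1, LGALS4 and CEACAM5, were not among the total RNA genes. Of 10 markers of blood, endothelium and fibroblasts 0 were among the total RNA genes and 1 among the RPF genes. As in any bulk sample, fewer cells with a transcript and less transcript per cell cannot be told apart.

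Several of these genes are known targets of the factor itself, which binds a short DNA element. The κB consensus (10 bases, searched on both strands, with overlapping matches counted) was sought in the RefSeq promoter windows of build GRCh38.p14, which run from 250 bases before to 50 bases after a transcription start. Of the 10 genes 8 had a window, 13 windows in all, and 8 of these 13 (61.5%) held a match, against 11.3% of all 35116 windows. By gene, 7 of 8 had a match in at least 1 window, against 13.3% of 27305 genes. RELA was the gene without a match in its 2 windows, and NFKB2 had 5 matches over 3 windows. RELB and NFKBIE had no window. For each gene with a match, 1 match is shown with 10 bases on either side, on the strand of the gene, to let the reader see the shared element. The capitals mark the match.

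NFKB1 (chr4:102501300-102501329, + strand, 49 bases before the start site): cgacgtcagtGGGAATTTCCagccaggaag
NFKB2 (chr10:102395674-102395703, + strand, 21 bases before a start site): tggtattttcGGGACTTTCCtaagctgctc
NFKBIA (chr14:35404811-35404840, - strand, 81 bases before the start site): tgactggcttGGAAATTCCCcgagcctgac
NFKBIB (chr19:38899931-38899960, + strand, 28 bases before a start site): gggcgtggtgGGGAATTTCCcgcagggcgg
BCL3 (chr19:44748700-44748729, + strand, 2 bases after the start site): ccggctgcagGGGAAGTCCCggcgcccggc
TNFAIP3 (chr6:137867194-137867223, + strand, 55 bases before the start site): aaagtcccgtGGAAATCCCCgggcctacaa
BIRC3 (chr11:102317339-102317368, + strand, 135 bases before the start site): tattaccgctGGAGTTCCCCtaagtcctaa

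The matches of NFKBIA, TNFAIP3 and BIRC3 read in the direction opposite to the gene. A match is a description of the letters and was not tested as a binding site.

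The members differed widely in level. Per kilobase of coding sequence, the RPF level in uninduced shCTRL cells was highest for NFKBIB, at 8.01 ± 0.32 (SD, n = 4, log2 per kb), and RELA, at 7.97 ± 0.18, and the values of these 2 genes overlapped. NFKBIA followed at 7.10 ± 0.31, with every replicate below those of RELA. NFKB1 (5.25 ± 0.16) and NFKBIE (5.23 ± 0.16) overlapped, as did RELB (4.68 ± 0.32) and NFKB2 (4.63 ± 0.068). BCL3 was lowest at 3.16 ± 0.28, at the 5.46 percentile of the measured genes, whereas NFKBIB and RELA stood at the 71.1 and 70.5 percentiles. The inhibitors IκBβ and IκBα and the subunit p65 thus had more ribosome footprints per length than p105, p100 or RelB.

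In total RNA per kilobase of transcript the order was RELA (6.23 ± 0.19), NFKBIA (6.21 ± 0.073), NFKBIB (6.06 ± 0.092), NFKB1 (5.73 ± 0.090), RELB (4.15 ± 0.19), NFKB2 (3.68 ± 0.076) and NFKBIE (3.63 ± 0.037). The values of RELA overlapped those of NFKBIA and of NFKBIB, and NFKB2 overlapped NFKBIE. BIRC3 has no level per length here, since its measured transcript is listed without a coding sequence in the annotation used (GENCODE release 29).

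In the shEIF2B1 response the footprints and the TE of NFKBIA rose, and no other member was called. NFKBIA, the inhibitor that is itself a classical NF-κB target, rose in RPFs in the shEIF2B1 response by 0.42 (SE 0.14, adjusted p = 0.0392, limma) and in TE by 0.60 (SE 0.15, adjusted p = 0.0418, limma), in 4 of 4 weeks each. Its total RNA response was -0.19 (SE 0.12, adjusted p = 0.48), also with the same sign in 4 of 4 weeks. After shEIF2B4 the corresponding values were 0.049 in RPFs (adjusted p = 0.896), 0.18 in TE (adjusted p = 0.523) and -0.13 in total RNA (adjusted p = 0.606).

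The NFKBIA gene lies at chr14:35401511-35404749 on the minus strand (GRCh38) and has 6 exons in the measured transcript. In uninduced shEIF2B1 cells its RPF values were 6.92, 6.60, 6.80 and 6.51 in weeks 1 to 4, and in induced cells 7.32, 6.89, 7.09 and 6.91. In each week the induced library was the higher of the pair, by 0.40, 0.29, 0.29 and 0.40, although the ranges of both groups overlap. In shCTRL the RPF values were 7.35, 7.09, 7.06 and 6.60 without and 7.16, 6.98, 6.96 and 6.72 with doxycycline. The control line thus changed little, with a lower value on induction in 3 of 4 weeks. In shEIF2B4 the RPF values were 6.81, 6.62, 6.69 and 6.44 without and 6.94, 6.62, 6.53 and 6.37 with doxycycline. All values of this line were at or below 6.94, in both states.

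The total RNA of NFKBIA was lower on induction in 3 of 4 weeks in the shEIF2B1 line. Its values were 6.69, 6.83, 6.69 and 6.82 in uninduced and 6.74, 6.61, 6.37 and 6.45 in induced shEIF2B1 cells. They were 6.72, 6.71, 6.66 and 6.84 in uninduced and 6.70, 6.70, 6.51 and 6.40 in induced shEIF2B4 cells. In both knockdown lines, weeks 3 and 4 of the induced cells were the lowest. The shCTRL libraries ranged from 6.72 to 6.94 over both states.

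The TE of NFKBIA separated by induction in the shEIF2B1 line. In uninduced shEIF2B1 cells log2 TE was 0.23, -0.23, 0.12 and -0.31, and in induced cells 0.58, 0.28, 0.72 and 0.45. Every induced library lay above every uninduced one, a pattern found in 2.23% of the genes with a TE in this line. In shCTRL the TE ranged from -0.18 to 0.48 without and from -0.082 to 0.24 with doxycycline, and in shEIF2B4 from -0.40 to 0.094 and from -0.083 to 0.25.

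**Figure D1:**
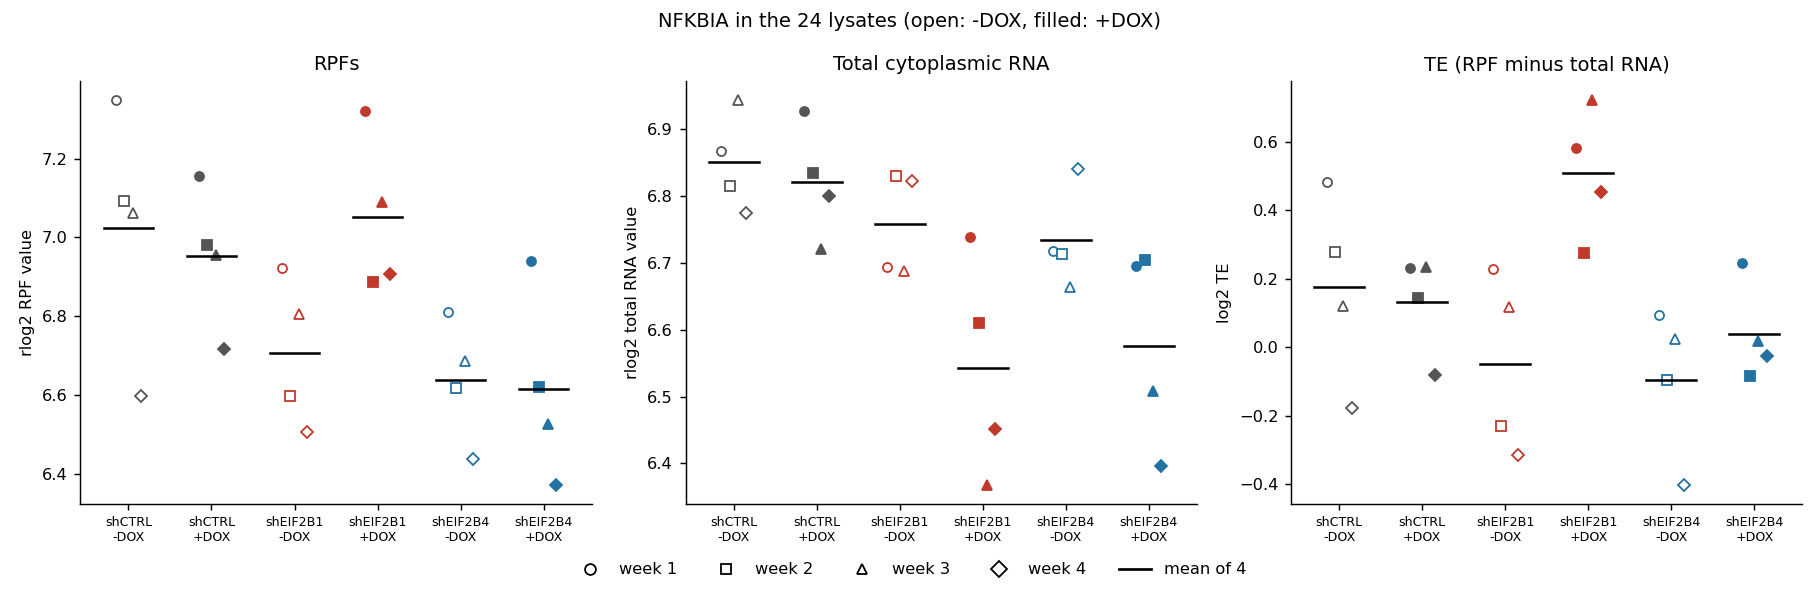
NFKBIA in every lysate, as regularized log2 RPF value, regularized log2 total RNA value and log2 TE, by line and doxycycline, with the week as the symbol and the mean of 4 as a bar. In the shEIF2B1 line RPFs are higher and total RNA is lower in most weeks on induction, and the induced TE values (0.28 to 0.72) lie above all uninduced ones (-0.31 to 0.23).

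The call of NFKBIA was lost under several settings. Fitting without the week block gave an adjusted p of 0.621 (RPFs) and 0.906 (TE). In that fit 0.449% and 0% of all genes were called, beside 27.3% and 7.1% with the block, so that nearly all genes lost their call. Without week 1 the adjusted p was 0.181 and 0.223 (14% and 0% of all genes called). Without week 3 it was 0.11 and 0.133 (18.7% and 0.397% called). Without week 4 the RPF call held (0.0907) and the TE call was lost (0.2), with 13.7% and 0.185% of all genes called. Without week 2 both held (0.0664 and 0.0442), with 24.4% and 12.6% called. With all 24 libraries in one fit it was 0.0489 in RPFs and 0.107 in TE. The response itself stayed between 0.36 and 0.46 in RPFs and between 0.58 and 0.64 in TE over the weeks left out. The shEIF2B1 response exceeded the shEIF2B4 response of NFKBIA by 0.37 in RPFs (95% interval 0.098 to 0.64, unadjusted p = 0.00943, adjusted p = 0.746, limma) and by 0.43 in TE (0.11 to 0.74, unadjusted p = 0.00898, adjusted p = 0.789, limma), with the same sign in 4 of 4 weeks, so that the difference between the knockdowns did not pass the test. Among all genes, 0.00897% were called for this difference in RPFs, 0.1% in total RNA and 0% in TE, and 0 members were called in any. At an unadjusted p under 0.05 these were 1 of 8 members in RPFs (NFKBIA), 0 of 8 in total RNA and 2 of 7 in TE (NFKBIA and NFKB1), beside 6.4%, 12.8% and 6.14% of all genes.

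The RPF level of NFKBIA differed between the lines before induction. It was lower in uninduced shEIF2B1 than in uninduced shCTRL cells by 0.32 (SE 0.097, adjusted p = 0.0123, limma, lower in 4 of 4 weeks) and in uninduced shEIF2B4 cells by 0.39 (SE 0.13, adjusted p = 0.088, lower in 4 of 4 weeks). In the first comparison 54.1% of all genes were called and NFKBIA was 1 of 8 members. In the second 13.9% of all genes and 2 of 8 members (NFKBIA and NFKB2) were called, and the median of all genes was itself -0.13. After each library was centered on its median, the NFKBIA difference in uninduced shEIF2B4 cells was -0.29 (adjusted p = 0.204, 0.153% of all genes called). Without the week block the adjusted p was 0.346 in uninduced shEIF2B1 and 0.469 in uninduced shEIF2B4 cells, where 0% and 0.00897% of all genes were called. In uninduced shEIF2B4 cells it was 0.354, 0.164 and 0.288 without week 2, 3 and 4 (0.00897%, 1.56% and 0% of all genes called).

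The induced lines were also compared with each other, a comparison chosen after these values were seen. Induced shEIF2B1 exceeded induced shCTRL cells in NFKBIA RPFs by 0.099 (SE 0.11, adjusted p = 0.686, limma), where 10.5% of all genes were called, and in TE by 0.38 (SE 0.13, adjusted p = 0.392, higher in 4 of 4 weeks), where 0.388% were called. In total RNA NFKBIA was lower than in induced shCTRL cells by 0.28 after shEIF2B1 (SE 0.087, adjusted p = 0.0959, 7.64% of all genes called) and by 0.24 after shEIF2B4 (SE 0.077, adjusted p = 0.0374, 30% of all genes called), in 4 of 4 weeks each. Induced shEIF2B4 cells also had fewer NFKBIA RPFs than induced shCTRL cells, by 0.34 (SE 0.10, adjusted p = 0.0279, 29.4% of all genes called), with a median of all genes of -0.13. RELB total RNA was higher in induced shEIF2B1 cells by 0.28 (SE 0.086, adjusted p = 0.091), which with NFKBIA made 2 of 8 members called there. In TE 0 of 7 members were called between the induced lines in either comparison (3.03% of all genes for shEIF2B4), with NFKBIA for shEIF2B1 (6.6% of all genes) and RELB for shEIF2B4 (18.2% of all genes) at an unadjusted p under 0.05 in limma.

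Over all members, 1 of 8 was called in RPFs after shEIF2B1, where 27.3% of all genes were called, and 0 of 8 after shEIF2B4, where 2.75% were called. In total RNA 0 of 8 were called after shEIF2B1 (3.47% of all genes) and 0 of 8 after shEIF2B4 (5.4% of all genes). In TE 1 of 7 was called after shEIF2B1 (7.1% of all genes) and 0 of 7 after shEIF2B4 (0.0923% of all genes). At an unadjusted p under 0.05 in limma these counts were 1 (RELB) in RPFs after shEIF2B4, 1 (BIRC3) in total RNA after shEIF2B1, 0 in total RNA after shEIF2B4, and 2 (RELB and NFKBIB) in TE after shEIF2B4. The shares of all genes at that p were 15.7%, 15.3%, 17.2% and 17.1% in the same order. The median RPF response of the 8 members was 0.19 after shEIF2B1 and 0.096 after shEIF2B4, beside -0.011 and -0.017 over all genes. The median total RNA response of the 8 members was 0.092 and -0.029, beside -0.0038 and 0.0018 over all genes.

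**Figure D2:**
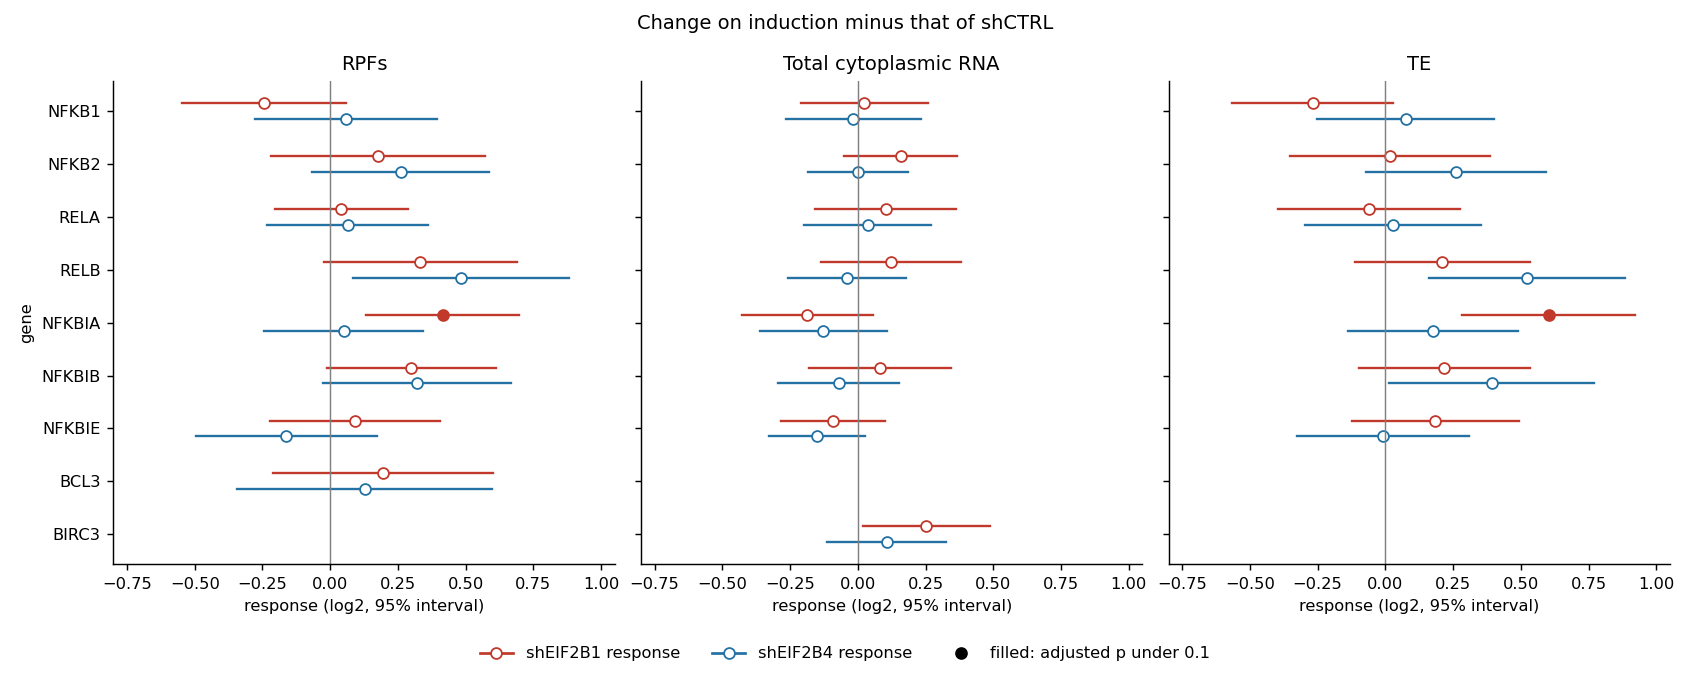
Response of each measured member (change on induction minus that of shCTRL, log2) with its 95% interval, in RPFs, total RNA and TE. Filled points passed the adjusted p of 0.1. NFKBIA after shEIF2B1 is the only filled gene, at 0.42 in RPFs and 0.60 in TE, and the only other intervals that leave out 0 are those of RELB (RPFs and TE, shEIF2B4), NFKBIB (TE, shEIF2B4) and BIRC3 (total RNA, shEIF2B1).

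The p105 product of NFKB1 is both a precursor of p50 and an IκB-like inhibitor. Among the member subunits, NFKB1 had the most negative RPF response to shEIF2B1, at -0.24 (SE 0.14, adjusted p = 0.246, limma). The subunit REL, which is not a member, fell further and is given with the pathway lists below. The TE response of NFKB1 was -0.27 (adjusted p = 0.294, limma, negative in 4 of 4 weeks). Its RPF values in the shEIF2B1 line were 6.92, 7.19, 6.73 and 7.09 without and 6.48, 6.63, 6.65 and 6.57 with doxycycline. Each induced value lay below each uninduced one, as for 7.78% of all RPF genes in this line. Its log2 TE in this line was -0.96, -0.63, -0.96 and -0.82 without and -1.48, -1.35, -1.36 and -1.27 with doxycycline, again without overlap (2.1% of all genes). The change within the line, with no reference to shCTRL, was -0.40 in RPFs (adjusted p = 0.00752, 49.4% of all genes called) and -0.52 in TE (adjusted p = 0.00878, 17.1% called). The shCTRL line changed in the same direction, by -0.16 in RPFs (adjusted p = 0.357) and -0.25 in TE (adjusted p = 0.237), with the same sign in 4 of 4 weeks each, which the response takes off. The total RNA response of NFKB1 was 0.024 (adjusted p = 0.95). After shEIF2B4 its responses were 0.057 in RPFs, 0.074 in TE and -0.017 in total RNA, with no adjusted p under 0.811.

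RELB, the transactivating partner of p52 in the alternative pathway, had a positive RPF response in both lines, 0.33 after shEIF2B1 (SE 0.17, adjusted p = 0.176) and 0.48 after shEIF2B4 (SE 0.19, adjusted p = 0.221), in 4 of 4 weeks each. Its TE response was 0.21 (adjusted p = 0.469) and 0.52 (adjusted p = 0.187). In shEIF2B4 the RPF values were 5.77, 5.31, 5.07 and 5.00 without and 5.98, 5.66, 5.60 and 5.41 with doxycycline. The induced library was the higher in each week, yet the groups overlap. The total RNA response of RELB was 0.12 after shEIF2B1 (adjusted p = 0.687) and -0.041 after shEIF2B4 (adjusted p = 0.88). Without the correction for shCTRL, RELB was called in RPFs of the shEIF2B4 line, at 0.37 (adjusted p = 0.0505, 23.8% of all genes called).

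NFKB2, the p100 precursor, had RPF responses of 0.18 (adjusted p = 0.543) and 0.26 (adjusted p = 0.429) after shEIF2B1 and shEIF2B4. Its total RNA in the shEIF2B1 line was 5.27, 5.46, 5.28 and 5.35 without and 5.55, 5.50, 5.68 and 5.52 with doxycycline. All 4 induced values lay above all uninduced ones, a pattern shared by 13.8% of genes, and the response was 0.16 (adjusted p = 0.482). In uninduced cells NFKB2 RPFs were lower in shEIF2B4 than in shCTRL by 0.39 (SE 0.12, adjusted p = 0.0812, limma), with values of 5.68, 5.62, 5.73 and 5.65 against 6.03, 6.0, 6.15 and 6.06. The ranges do not overlap, as for 6.36% of all RPF genes in this direction. With libraries centered on their medians the difference was -0.30 (adjusted p = 0.194, 0.153% of all genes called). Without the week block the adjusted p was 0.425 (0.00897% called). Leaving out week 2, 3 or 4 gave an adjusted p of 0.315, 0.175 or 0.314 (0.00897%, 1.56% or 0% of all genes called).

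RELA, the p65 subunit of the canonical dimer, had the smallest absolute RPF response to shEIF2B1, at 0.042 (95% interval -0.20 to 0.29), and 0.064 after shEIF2B4 (-0.23 to 0.36). In total RNA the responses were 0.10 (-0.16 to 0.36) and 0.037 (-0.20 to 0.27), and in TE -0.061 (-0.40 to 0.27) and 0.028 (-0.30 to 0.35). RELA RPF values lay between 8.13 and 8.97 over all 24 lysates.

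Among the other inhibitors, NFKBIB changed in the control line. Its RPF values in shCTRL were 8.20, 7.75, 8.51 and 7.98 without and 8.06, 7.21, 7.68 and 7.59 with doxycycline, lower on induction in 4 of 4 weeks. The change was -0.47 (SE 0.11, adjusted p = 0.0495, limma), and NFKBIB was the only 1 of 8 members called where 9.85% of all RPF genes were. Without the week block the adjusted p was 0.664 (0% of all genes called). Without week 2, 3 or 4 it was 0.161, 0.435 or 0.236 (0.0359%, 0.0269% or 0.0359% called). Within the knockdown lines NFKBIB RPFs changed by -0.17 (shEIF2B1, adjusted p = 0.184) and -0.15 (shEIF2B4, adjusted p = 0.368), so that the responses came out as 0.30 (adjusted p = 0.165) and 0.32 (adjusted p = 0.351). In total RNA and TE of shCTRL 0 members were called, where 4.44% and 0.388% of all genes were, and at an unadjusted p under 0.05 in limma there were 1 of 8 (RELA) and 2 of 7 (NFKB1 and NFKBIB), beside 20.1% and 15% of all genes.

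NFKBIE, the inhibitor IκBε, had RPF responses of 0.093 (adjusted p = 0.697) after shEIF2B1 and -0.16 (adjusted p = 0.652) after shEIF2B4. Its total RNA in the shEIF2B4 line was 5.02, 4.98, 4.99 and 5.00 without and 4.93, 4.94, 4.83 and 4.75 with doxycycline. All induced values lay below all uninduced ones. The same held for NFKBIB, with 6.35, 6.50, 6.69 and 6.40 against 6.33, 6.23, 6.25 and 6.26. This pattern was found in 12% of genes in this line, and the responses were -0.15 for NFKBIE (adjusted p = 0.376) and -0.070 for NFKBIB (adjusted p = 0.787). Before induction every shEIF2B4 value of NFKBIB lay above every shCTRL value (6.13 to 6.34), as for 1.58% of genes. The means of the induced cells were 6.27 in shEIF2B4 and 6.12 in shCTRL. In the comparison of induced lines, chosen after the values were seen, NFKBIE RPFs were lower in induced shEIF2B4 than in induced shCTRL cells. The difference was 0.29 (SE 0.11, adjusted p = 0.0778, limma). In that comparison 29.4% of all genes were called (25.3% lower), NFKBIA among them, and the median over all genes was -0.13.

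BCL3, the lowest of the RPF members, had responses of 0.19 (SE 0.20, adjusted p = 0.513) and 0.13 (SE 0.22, adjusted p = 0.82). Its weekly responses to shEIF2B1 ran from -0.37 to 0.98, and the value without week 4 was -0.069. BIRC3 had a total RNA response of 0.25 (SE 0.11, adjusted p = 0.285) after shEIF2B1 and 0.11 (SE 0.10, adjusted p = 0.651) after shEIF2B4. In the shEIF2B1 line its total RNA was 4.79, 4.78, 4.59 and 4.55 without and 5.06, 4.79, 4.99 and 5.06 with doxycycline. The induced values lay above the uninduced ones, if only just in week 2, as for 13.8% of genes in this line, and the change within the line was 0.30 (adjusted p = 0.0199, 34.4% of all genes called). In uninduced shEIF2B4 cells BIRC3 was lower than in uninduced shCTRL cells by 0.26 (SE 0.062, adjusted p = 0.0984, limma, 2.32% of all genes called), with values of 4.50, 4.32, 4.45 and 4.55 against 4.82, 4.72, 4.58 and 4.74. This was the 1 called member of 8 in total RNA there, and without the week block, without the mean-variance trend, with libraries centered, or without week 1, 2 or 4 it was not called (adjusted p = 0.188, 0.138, 0.174, 0.287, 0.361 and 0.198). The shares of all genes called were 0.795%, 1.35%, 2.03%, 0.377%, 0.0419% and 0.703% in the same order. In total RNA of uninduced shEIF2B1 cells 0 of 8 members were called, also with 0 at an unadjusted p under 0.05 in limma, where 1.4% of all genes were called and 13.1% had such a p.

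**Figure D3:**
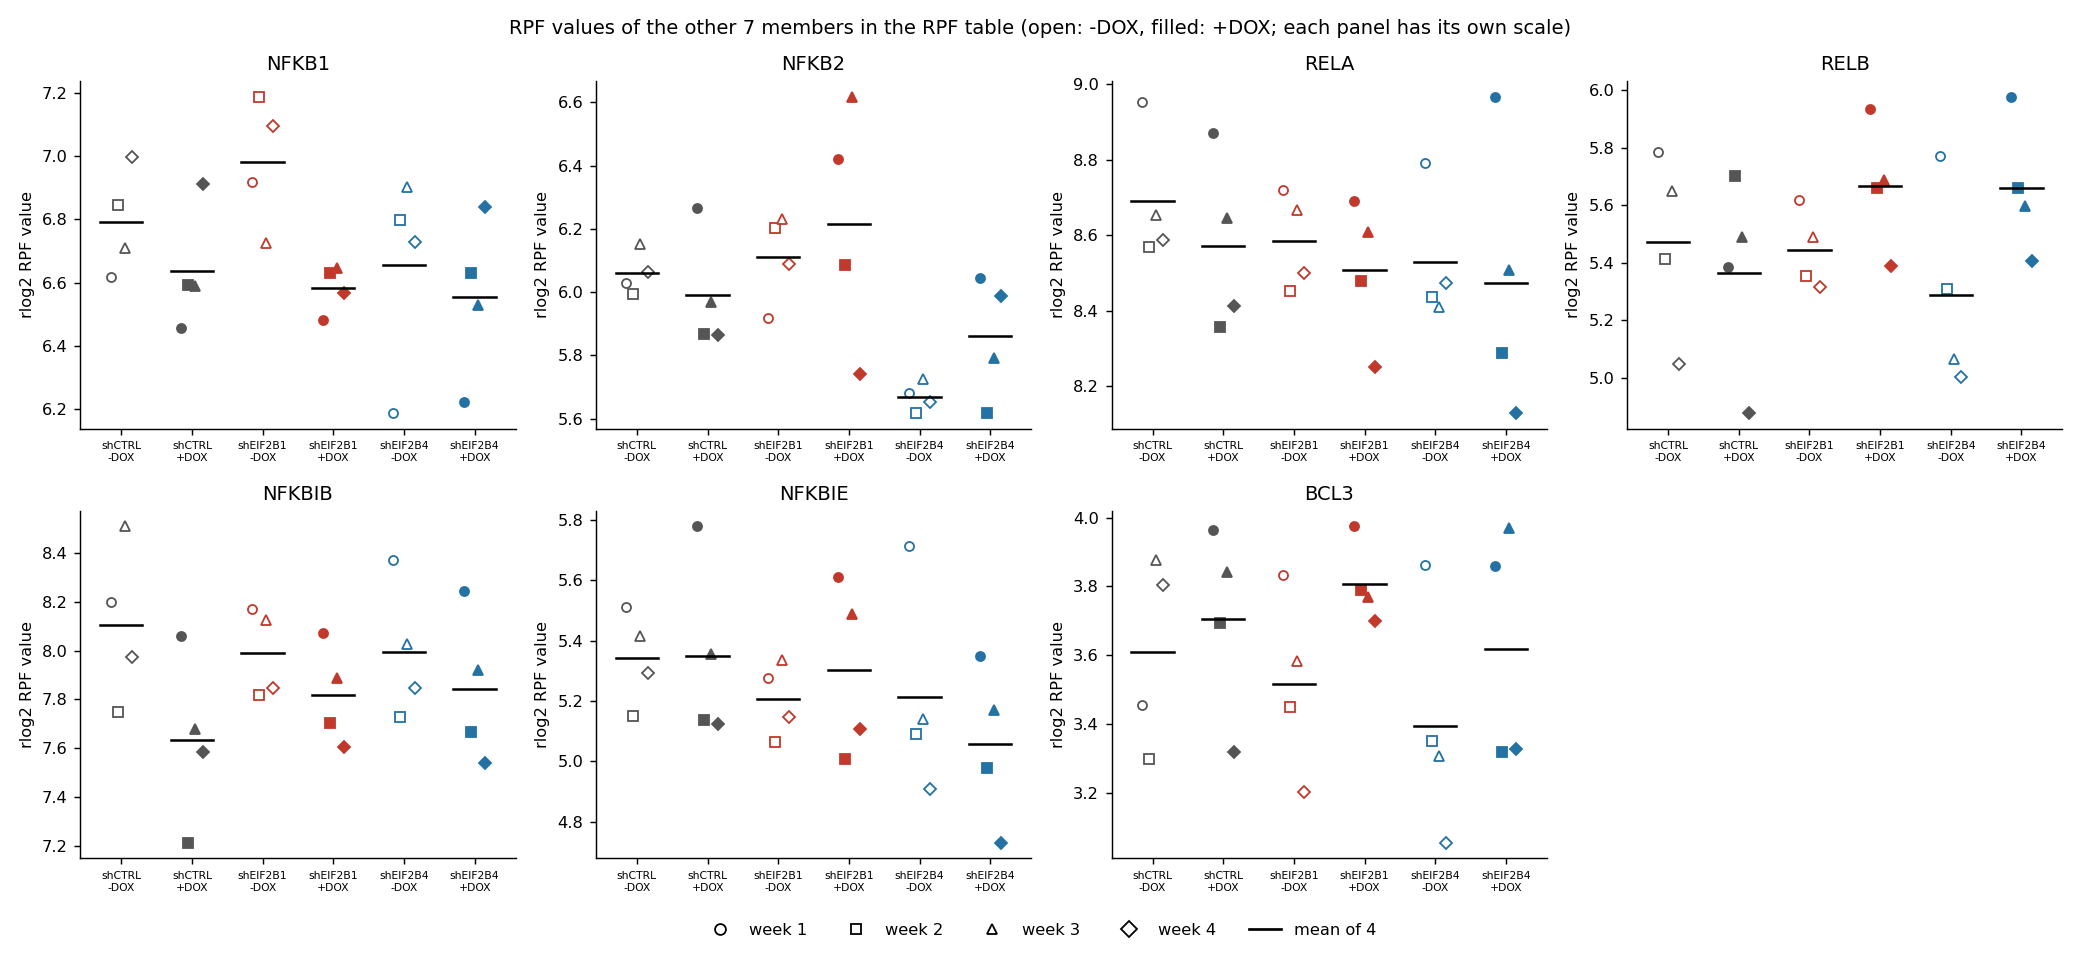
Regularized log2 RPF values of the other 7 members by line and doxycycline, with the week as the symbol and the mean of 4 as a bar. NFKB1 in the shEIF2B1 line (6.48 to 6.65 induced, 6.73 to 7.19 uninduced) separates, and NFKB2 in uninduced shEIF2B4 cells (5.62 to 5.73) lies below uninduced shCTRL (6.0 to 6.15).

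The members varied differently over the libraries. Over the 24 RPF libraries, after the mean of each week was taken off, Pearson's r between members ran from -0.47 (NFKB1 and RELB) to 0.50 (NFKBIA and NFKBIE). The genes whose RPF values were most like those of NFKBIA were AMOT (r = 0.87), TYK2 (0.86), PI4K2A (0.85), CXCR6 (0.84) and FOXD1 (0.84). These correlations describe libraries that share lines, weeks and normalization, and carry no test.

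The sequences of the members leaned to G and C at the third codon position. Of the 8 members with a coding sequence in the annotation, 7 lay above the median of 59.1% G or C at this position over 11895 transcripts. NFKB1 was the exception, at 47% and the 30.2 percentile, whereas NFKBIA had 74.4% (77.3 percentile) and RELB and BCL3 had 80% and 80.4%. The coding sequence of NFKBIA is 951 nt (33.8 percentile) and that of NFKB1 2907 nt (87.1 percentile). The leader of NFKBIA before the start codon is 102 nt and holds 0 upstream AUG triplets, as do 51.3% of the transcripts. NFKBIE stood apart with 6 upstream AUGs in a leader of 442 nt (95.3 percentile for the number), and NFKB1 and RELA had 1 each.

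The rest of the pathway was read from lists of genes by role, beside the 27.3% of all genes called in RPFs after shEIF2B1 (12% higher and 15.3% lower) and the 2.75% called after shEIF2B4 (1.88% higher and 0.87% lower). Of 27 measured genes of the IκB kinase complex and the signalling upstream of it, 2 rose and 2 fell in RPFs after shEIF2B1, and 0 were called after shEIF2B4. Those that fell were TBK1, an IKK-related kinase (-0.64, SE 0.15, adjusted p = 0.0082), and BCL10, an adaptor of the antigen receptor branch (-0.51, SE 0.18, adjusted p = 0.0548). SHARPIN, a subunit of the linear ubiquitin ligase, rose by 0.61 (SE 0.17, adjusted p = 0.0168) and the receptor-associated kinase IRAK1 by 0.34 (adjusted p = 0.0427). In total RNA, where 28 of the list were measured, RBCK1, the partner of SHARPIN in this ligase, was the 1 gene called after shEIF2B1 (0.46, adjusted p = 0.0315, 3.47% of all genes called), and TAB3, an adaptor of the kinase TAK1, was the 1 called after shEIF2B4 (0.29, adjusted p = 0.0984, 5.4% of all genes called). The median RPF response of the list was -0.010 after shEIF2B1 and -0.042 after shEIF2B4.

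Of 14 measured genes of the list of other Rel and IκB proteins and negative regulators, 1 rose and 3 fell in RPFs after shEIF2B1 (27.3% of all genes called), and 0 were called after shEIF2B4 (2.75%). The RNase ZC3H12A rose by 0.47 (SE 0.19, adjusted p = 0.0865). The subunit REL fell by 0.45 (SE 0.17, adjusted p = 0.0768), the ubiquitin ligase ITCH by 0.44 (SE 0.13, adjusted p = 0.0256) and FBXW11, a substrate receptor of the ligase that marks IκB, by 0.36 (adjusted p = 0.0733). In total RNA, TAX1BP1, an adaptor of A20 (0.42, adjusted p = 0.00899), and RNF11 (0.57, adjusted p = 0.0273) rose after shEIF2B4, 2 of 16 measured genes beside 5.4% of all genes. The median RPF response was -0.034 and 0.060.

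LCN2 and TNFRSF9, classical target genes of the factor, had larger responses than any member. Of 38 listed targets 18 were measured in RPFs, of which 5 rose and 1 fell after shEIF2B1 (12% of all genes higher and 15.3% lower) and 3 rose after shEIF2B4 (1.88% higher). LCN2, the siderophore-binding lipocalin, rose by 3.88 (SE 0.33, adjusted p = 3.26e-07) after shEIF2B1 and by 4.19 (SE 0.29, adjusted p = 2.5e-07) after shEIF2B4. TNFRSF9, the co-stimulatory receptor 4-1BB, rose by 2.11 (SE 0.20, adjusted p = 1.45e-06) and 1.99 (SE 0.26, adjusted p = 0.000269). JUNB, an AP-1 subunit, rose by 0.69 (SE 0.22, adjusted p = 0.0364) and 0.94 (SE 0.22, adjusted p = 0.0423). In total RNA LCN2 rose by 2.77 and 3.32 and TNFRSF9 by 1.31 and 1.04, with adjusted p-values of 1.65e-07, 8.76e-09, 1.22e-06 and 8.39e-06. SDC4, a cell surface proteoglycan, also rose in total RNA after shEIF2B4 (0.41, adjusted p = 0.0727), so that 2 of 19 measured targets rose after shEIF2B1 (2.34% of all genes higher) and 3 of 19 after shEIF2B4 (3.78% higher). SOD2, the mitochondrial superoxide dismutase, fell in RPFs after shEIF2B1 by 0.38 (adjusted p = 0.0726). The median RPF response of the 18 targets was 0.20 and 0.15, and the median total RNA response of the 19 was -0.024 and 0.012. Before induction the median RPF difference of the targets from shCTRL was -0.18 in shEIF2B1 and -0.24 in shEIF2B4 cells, beside 0.0024 and -0.13 over all genes.

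**Figure D4:**
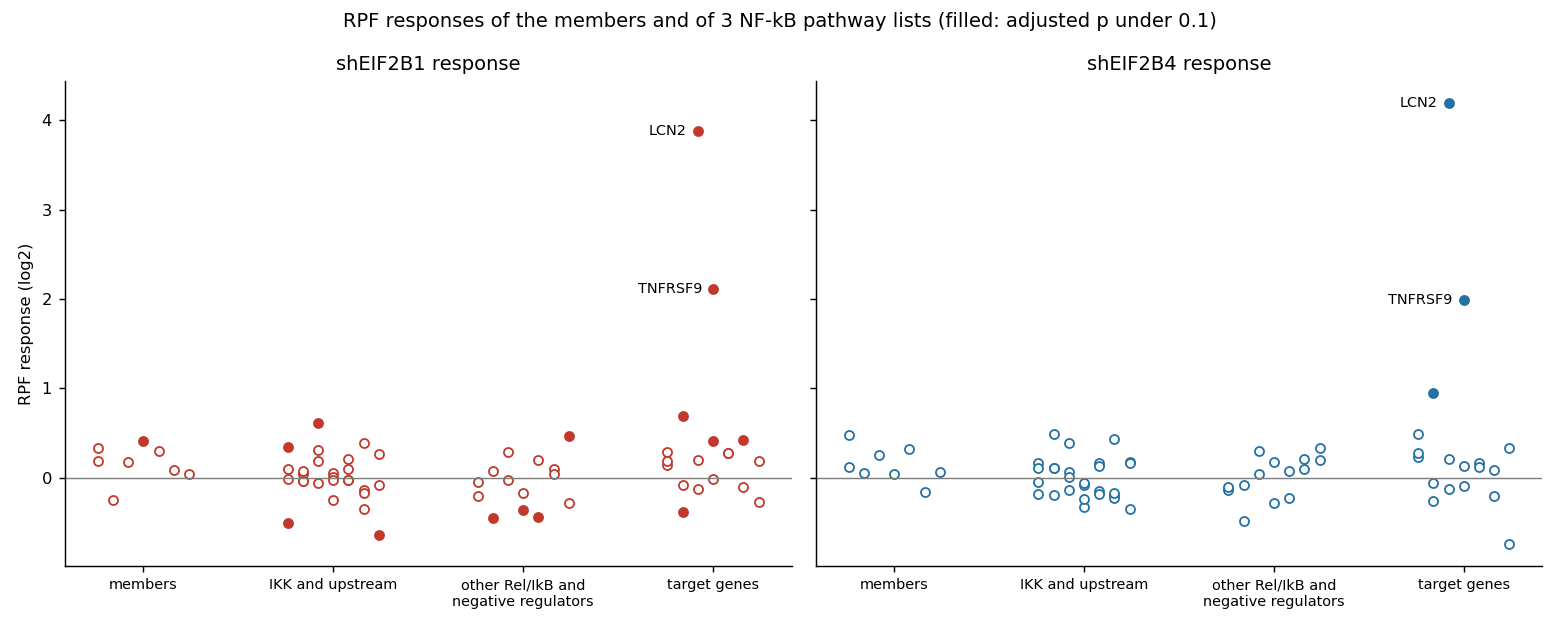
RPF response (log2) of the members and of 3 lists of the NF-κB pathway after shEIF2B1 and shEIF2B4, 1 point per gene, filled where the adjusted p was under 0.1. LCN2 (3.88 and 4.19) and TNFRSF9 (2.11 and 1.99) stand apart, while the members lie between -0.24 and 0.48.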

How the data were processed

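Ribosome footprinting and total cytoplasmic RNA-seq were analyzed for 24 SW480 lysates in 6 groups of 4. Per the authors' methods, reads were trimmed (cutadapt 1.18, per the submitters' processing notes), deduplicated and aligned with Bowtie2 to GENCODE protein-coding transcripts, RPFs were cleared of rRNA and tRNA reads and counted on coding sequences, and RSEM quantified total RNA. The deposited log2 expression was transformed by the authors with the regularized logarithm of DESeq2, for each assay apart and for the most expressed transcript of a gene. Replicate 3 joins 2 sequencing runs.

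Responses, changes within lines and differences between lines were fitted with limma 3.58.1 (R 4.3.3, mean-variance trend) across all genes, with Benjamini-Hochberg adjustment. The week enters as a block, as in the authors' design, since a replicate number marks a shared week. Deviations of same-week RPF libraries correlated at a mean of 0.56 (over 0.1 in 52 of 60 pairs), those of total RNA libraries at 0.18 (37 of 60) and TE values at 0.54 (55 of 60). With the week as a block and 4 replicates per group, p-values measure how far differences between libraries of the same week vary from week to week. Each hairpin had 1 subline, so that they do not cover the spread between sublines. Named were all members, from each pathway list up to 3 genes of largest RPF response among those called, and the 5 genes most correlated with NFKBIA. IRAK1, RBCK1, TAB3, TAX1BP1, RNF11, FBXW11, SDC4 and SOD2 were named after their values were seen. The members and lists were chosen with earlier results of these data known. Coding lengths, leaders and GC content came from GENCODE release 29 and promoters from RefSeq, read with Python 3.11.15.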

Additional observations from a re-analysis of the deposited data

Results flagged for a closer look

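The shEIF2B1 response of NFKBIA was 0.42 in RPFs and 0.60 in TE. It exceeded the shEIF2B4 response by 0.37 and 0.43 in an interaction test (limma), with the same sign in 4 of 4 weeks, which passed at an unadjusted threshold of 0.05 and not after adjustment over all genes (adjusted p = 0.746 and 0.789).

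Of 138 groups of 4 libraries, 4 (2.9%) held a library far from the other 3, where chance gives about 1 in 20, and each was a library of week 1. NFKB1 log2 TE was -1.64 in uninduced shEIF2B4 cells of week 1, against -1.05 to -0.98 in the other weeks. NFKB2 log2 TE was 1.01 in induced shCTRL cells of week 1, against 0.52 to 0.56. RELA RPFs were 8.79 in uninduced shEIF2B4 cells of week 1, against 8.41 to 8.47. RELA log2 TE was 1.25 in uninduced shEIF2B1 cells of week 1, against 0.89 to 0.94.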

How the results depend on the processing

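The alternatives left 426 of the single-gene values on the same side of the threshold with the same direction, took 33 below it, brought 16 past it and reversed 54, and the causes were not tested. Most of the 426 were values not called to begin with. The called NFKBIA values kept their call in 7 of 11 alternatives (RPFs shEIF2B1 response), 5 of 11 (TE shEIF2B1 response), 7 of 8 (RPFs uninduced shEIF2B1) and 2 of 8 (RPFs uninduced shEIF2B4). NFKB2 kept it in 2 of 8 (RPFs uninduced shEIF2B4), NFKBIB in 4 of 8 (RPFs shCTRL change) and BIRC3 in 1 of 7 (total RNA uninduced shEIF2B4). Each percentage below is the share of all genes called under the same setting. Without the replicate block (the weeks unpaired), the members called numbered 0 (RPFs shEIF2B1 response 0.449%, RPFs shCTRL change 0%, RPFs uninduced shEIF2B1 0%, RPFs uninduced shEIF2B4 0.00897%, total RNA uninduced shEIF2B4 0.795%, TE shEIF2B1 response 0%). Without the mean-variance trend, the members called numbered 0 (total RNA uninduced shEIF2B4 1.35%). With the lowest 25% of genes left out, the members called numbered 2 (RPFs uninduced shEIF2B1 61.2%) and 0 (RPFs uninduced shEIF2B4 2.73%, total RNA uninduced shEIF2B4 0.123%). With each library centered on its median, the members called numbered 3 (RPFs uninduced shEIF2B1 56.1%) and 0 (RPFs uninduced shEIF2B4 0.153%, total RNA uninduced shEIF2B4 2.03%). There, the sign changed for TE shEIF2B4 response (NFKBIE 0.018). With all 24 libraries in one fit, the members called numbered 0 (TE shEIF2B1 response 0.406%). Without the shCTRL correction, the members called numbered 3 (RPFs shEIF2B1 response 49.4%, total RNA shEIF2B1 response 34.4%), 1 (RPFs shEIF2B4 response 23.8%, total RNA shEIF2B4 response 34.4%) and 2 (TE shEIF2B1 response 17.1%). There, the sign changed for RPFs shEIF2B1 response (NFKBIB -0.17, RELA -0.078), RPFs shEIF2B4 response (NFKBIA -0.023, NFKBIB -0.15, NFKB1 -0.098, RELA -0.055), total RNA shEIF2B1 response (NFKBIB -0.066, RELA -0.11), total RNA shEIF2B4 response (NFKB2 0.064, RELB 0.071, NFKB1 0.082, RELA -0.18), TE shEIF2B1 response (NFKBIB -0.11, RELB -0.011, NFKB2 -0.12, RELA 0.036) and TE shEIF2B4 response (NFKB1 -0.18). With the induced lines compared (chosen after seeing the data), the members called numbered 0 (RPFs shEIF2B1 response 10.5%, TE shEIF2B1 response 0.388%), 2 (RPFs shEIF2B4 response 29.4%, total RNA shEIF2B1 response 7.64%) and 1 (total RNA shEIF2B4 response 30%). There, the sign changed for RPFs shEIF2B1 response (NFKBIE -0.044, RELA -0.064), RPFs shEIF2B4 response (NFKBIA -0.34, BCL3 -0.086, NFKB1 -0.081, NFKB2 -0.13, RELA -0.099), total RNA shEIF2B1 response (NFKBIE 0.0044), total RNA shEIF2B4 response (BIRC3 -0.15, NFKB2 0.041, NFKBIB 0.14, RELB 0.080, NFKB1 0.047), TE shEIF2B1 response (NFKBIB -0.011, NFKBIE -0.049, NFKB2 -0.0059) and TE shEIF2B4 response (NFKBIA -0.093, NFKB1 -0.13, NFKB2 -0.17, RELA -0.18). At an adjusted p under 0.05, the members called numbered 0 (RPFs uninduced shEIF2B4, total RNA uninduced shEIF2B4), and the share of all genes at this threshold was not counted. With each week left out in turn, the members called ranged from 0 to 2 (RPFs shEIF2B1 response 13.7% to 24.4%, TE shEIF2B1 response 0% to 12.6%, TE shEIF2B4 response 0% to 13.1%), from 0 to 1 (RPFs shCTRL change 0.0269% to 31.6%, total RNA uninduced shEIF2B4 0.0419% to 5.24%, TE shCTRL change 0% to 5.73%), from 1 to 2 (RPFs uninduced shEIF2B1 42.6% to 48.6%) and from 0 to 3 (RPFs uninduced shEIF2B4 0% to 47.6%). Values whose sign changed without a week ranged as follows, in RPFs shEIF2B1 response (BCL3 -0.069 to 0.38, RELA -0.024 to 0.080), RPFs shEIF2B4 response (NFKBIA -0.042 to 0.13, BCL3 -0.082 to 0.34), total RNA shEIF2B1 response (NFKB1 -0.046 to 0.098), total RNA shEIF2B4 response (NFKB2 -0.066 to 0.050, RELB -0.087 to 0.046, NFKB1 -0.11 to 0.091, RELA -0.029 to 0.10), TE shEIF2B1 response (NFKB2 -0.061 to 0.11) and TE shEIF2B4 response (NFKBIE -0.11 to 0.16, NFKB1 -0.080 to 0.17). BCL3, BIRC3 and other genes of low level have no value where the lowest genes were left out. Read depth is unknown, so that the precision of low genes cannot be given.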
